A study of Mus musculus with 12 samples.

Results

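The inner root sheath keratins are the 8 mouse genes *Krt25*, *Krt26*, *Krt27*, *Krt28*, *Krt71*, *Krt72*, *Krt73* and *Krt74*. They were chosen by gene name, with earlier results of these 12 libraries in view, and all 8 were found among the 52636 genes of the deposited count table. Their levels and differences are therefore given as a description. Full-thickness skin of C57BL/6 mice, given as 3 months old, was taken on day 14 from 4 groups of 3 mice and its mRNA was sequenced. WT mice carried *Cdc42* with loxP sites and no Cre. KO mice carried 2 loxP-flanked copies of *Cdc42*, which encodes a small GTPase of cell polarity, and a Cre driven by the keratin K5 promoter, so the deletion is limited to keratinocytes that use this promoter and other skin cells keep the gene. Mice of the groups named WT and KO received vehicle, normal saline with HPMC, on shaved dorsal skin. Mice of both genotypes that received zinc oxide nanoparticles in this vehicle have the group names WT+ZnO NPs or KO+ZnO NPs. All mice were shaved and all received the vehicle.

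Keratins form filaments from pairs, in which a type I keratin joins a type II keratin. The inner root sheath is the sleeve of hardened cells that surrounds and moulds the growing hair shaft, and its 3 layers, from outside inwards, are the Henle layer, the Huxley layer and the cuticle. Its cells are made by the hair matrix during anagen, the growth phase of the hair cycle, and are lost from the follicle when growth ends, so in a resting follicle the sheath is absent. *Krt25*, *Krt27* and *Krt28* encode type I keratins of all sheath layers and *Krt71* a type II keratin of all layers. *Krt26* (type I), *Krt72* and *Krt73* (type II) belong to the cuticle of the sheath. *Krt74* encodes a type II keratin of the Huxley layer in humans.

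In GRCm38 the genes lie in 2 groups, all on the minus strand. The type I genes occupy 59388 bases of chromosome 11, with *Krt25* (ENSMUSG00000035831) from 99315516 to 99322951, *Krt26* (ENSMUSG00000075570) from 99328550 to 99337966, *Krt27* (ENSMUSG00000017588) from 99345565 to 99351104 and *Krt28* (ENSMUSG00000055937) from 99364872 to 99374903. The type II genes occupy 68398 bases of chromosome 15, with *Krt71* (ENSMUSG00000051879) from 101733949 to 101743109, *Krt74* (ENSMUSG00000067596) from 101754259 to 101763504, *Krt72* (ENSMUSG00000056605) from 101776172 to 101786460 and *Krt73* (ENSMUSG00000063661) from 101793308 to 101802346. No other protein-coding gene lies inside either group, and no annotated gene overlaps a member. *Krt74* is annotated in the mouse as a transcribed pseudogene and the other 7 as protein-coding. Shared sequence can move counts between members. Of all 50-base stretches of their transcripts, *Krt27* shared 11.1% and *Krt25* 10.9% with other genes, mostly with each other and with *Krt28*, against 0.154% to 2.43% for the other 6 members.

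Promoters are shown because the members lie side by side and their levels moved together over the libraries. The 250 bases before the RefSeq start site (GRCm38.p6) were held for 7 members, all but *Krt74*. RefSeq and the gene coordinates above can place a start at different bases. The sequences below are read 5′ to 3′ on the minus strand, that is in the direction of transcription. *Krt25* and *Krt71* are printed as the most abundant type I and type II members, and *Krt73* for its resemblance to *Krt71*. *Krt72* is printed because its window lacks the exact letters TATAAA near the start. Variants of these letters were not searched. Capitals mark TATAAA or its reverse complement TTTATA, and AGATAA, a form of the motif bound by GATA factors.

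Krt25 (chr11:99322952-99323201): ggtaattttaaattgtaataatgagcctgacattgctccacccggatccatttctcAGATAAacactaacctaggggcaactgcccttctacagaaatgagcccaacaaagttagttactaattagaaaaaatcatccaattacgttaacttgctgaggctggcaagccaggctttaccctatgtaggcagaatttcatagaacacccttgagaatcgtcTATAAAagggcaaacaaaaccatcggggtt

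Krt71 (chr15:101743098-101743347): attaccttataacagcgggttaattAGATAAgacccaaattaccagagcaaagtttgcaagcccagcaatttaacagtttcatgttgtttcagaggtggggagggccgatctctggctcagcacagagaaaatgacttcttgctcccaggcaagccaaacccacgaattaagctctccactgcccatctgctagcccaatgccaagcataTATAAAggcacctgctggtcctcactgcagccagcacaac

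Krt73 (chr15:101802361-101802610): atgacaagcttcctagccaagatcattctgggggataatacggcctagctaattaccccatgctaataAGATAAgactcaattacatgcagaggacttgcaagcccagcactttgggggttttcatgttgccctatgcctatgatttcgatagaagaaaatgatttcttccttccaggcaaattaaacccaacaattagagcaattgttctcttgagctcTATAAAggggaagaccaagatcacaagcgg

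Krt72 (chr15:101786521-101786770): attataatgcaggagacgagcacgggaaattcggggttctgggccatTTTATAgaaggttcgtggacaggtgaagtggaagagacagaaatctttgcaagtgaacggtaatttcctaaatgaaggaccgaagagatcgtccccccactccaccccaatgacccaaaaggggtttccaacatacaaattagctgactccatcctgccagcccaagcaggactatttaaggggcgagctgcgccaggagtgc

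Both strands of these windows were searched. TATAAA was found in 7 of 7 members and in 12.4% of 32851 promoter windows of the same length. On the strand of the gene and within the last 45 bases before the start it was found in 6 of 7 members, against 2.45% of all windows. It stood 30 to 25 bases before the start in *Krt25*, *Krt26*, *Krt28* and *Krt73*, 15 to 10 in *Krt27* and 40 to 35 in *Krt71*, whereas the match in *Krt72* lay on the opposite strand, 203 to 198 bases before the start. AGATAA was found in *Krt25*, *Krt27*, *Krt71* and *Krt73*, which makes 4 of 7, against 9.99% of all windows. It lay on the strand of the gene in all 4, between 225 and 177 bases before the start. TAATTA, a core of homeodomain factor sites that reads the same on both strands, was found in *Krt25*, *Krt28*, *Krt71* and *Krt73* and in 4.84% of all windows. In *Krt71* it shares a base with the GATA motif. The box CCAAT was found in 4 of 7 members against 33.8% of all windows. The LEF/TCF core CTTTGA was found in 1 of 7 against 13.8%, and the AP-1 site TGACTCA in 0 of 7 against 4.46%. The longest stretch that any pair of members had in common was the 14 bases ttgcaagcccagca, which begin 196 bases before the start of *Krt71* and 154 before that of *Krt73*. The other pairs shared 7 to 12 bases. These are matches of letters and not measured sites.

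The libraries held 21076320 to 28867802 counts each. Levels are given as CPM, the share of a library's counts, scaled by TMM factors. *Cdc42* stood at 606.1 to 628.4 CPM in WT and 415.4 to 464.0 in KO. In the WT+ZnO NPs-labelled libraries it stood at 310.7 to 350.1 CPM, below all KO libraries, and in KO+ZnO NPs at 313.5 to 453.0. The *Cdc42* level thus does not bear out the wild-type label of the former, which are called WT+ZnO NPs-labelled libraries. It is an indirect reading of genotype, since the deletion is limited to some keratinocytes and whole skin was sequenced. By edgeR *Cdc42* was not called in KO against WT (log2 fold change -0.49, adjusted p = 0.0653) or in KO+ZnO NPs against the WT+ZnO NPs-labelled libraries (0.21, adjusted p = 0.401). It was called lower in the latter against WT (-0.92, adjusted p = 0.000799), as were 22.1% of all genes. Transcripts of 4 Y-linked genes summed to 214.8 to 244.6 CPM in all 3 WT+ZnO NPs-labelled libraries, in KO replicate 1 and in KO+ZnO NPs replicate 1, and to at most 0.0452 CPM in the other 7. The study's methods name female *Cdc42* KO mice, so these transcripts go against the description of KO replicate 1 and KO+ZnO NPs replicate 1, and whether samples were exchanged was not tested. The presence of Y-linked transcripts and the difference between the WT+ZnO NPs-labelled libraries and WT cannot be told apart.

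Transcripts of the 8 sheath keratins were nearly absent from the WT libraries, abundant in all 3 WT+ZnO NPs-labelled libraries, and divided within the KO group. Together they took 49, 28 and 56 counts in WT. In the KO libraries they took 192359, 279 and 54528 counts, the first being 0.796% of all counts of that library and the second 0.00109%. They took 17657, 62518 and 111916 counts in the WT+ZnO NPs-labelled libraries and 138373, 97386 and 4341 in KO+ZnO NPs. KO replicate 2 thus stood near the WT libraries, and KO+ZnO NPs replicate 3 lay between the low and the high libraries. Whole skin was sequenced, so fewer cells of the sheath and less RNA per cell cannot be told apart.

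**Figure D1:**
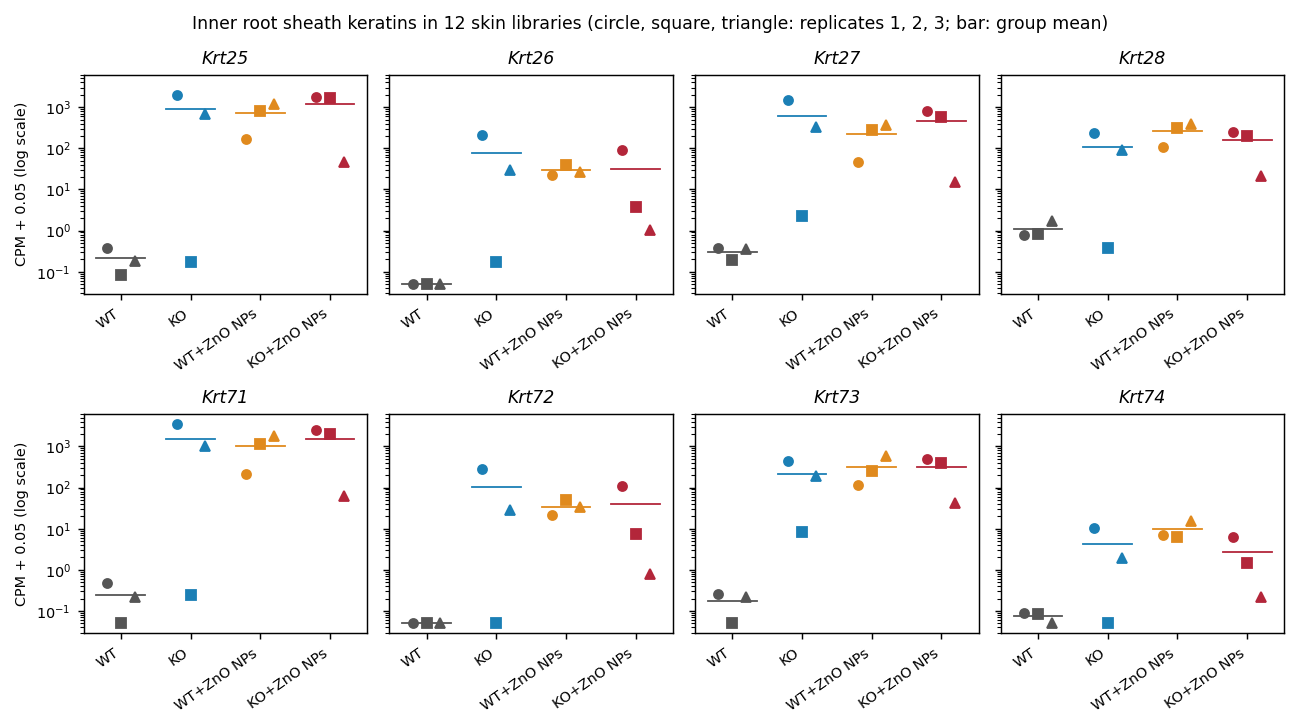
CPM of each inner root sheath keratin in the 12 libraries on a log scale, with 0.05 added so that zeros can be drawn. Circles, squares and triangles are replicates 1, 2 and 3 and bars are group means. WT libraries and KO replicate 2 lie at the bottom of nearly every panel, with *Krt73* and *Krt27* of KO replicate 2 above the WT libraries.

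Among the type II keratins, *Krt71*, of all sheath layers, was the most abundant, also per kb of exon. It stood at 0.42, 0 and 0.17 CPM in WT and at 3557, 0.201 and 1022 in KO. In the WT+ZnO NPs-labelled libraries it stood at 220.3, 1120.3 and 1808 CPM, and in KO+ZnO NPs at 2541, 2014 and 61.8. The WT+ZnO NPs-labelled and the KO+ZnO NPs libraries lay above all WT libraries, while KO replicate 2 lay between WT values. *Krt73*, of the cuticle, stood at 0.21, 0 and 0.17 CPM in WT and at 440.0, 8.20 and 196 in KO. Here KO replicate 2, with 204 counts, stood well above every WT library, which held at most 5. *Krt73* then stood at 114, 249.8 and 585 CPM in the WT+ZnO NPs-labelled libraries and at 502, 404 and 41.2 in KO+ZnO NPs.

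*Krt72*, of the cuticle, had 0 counts in every WT library and in KO replicate 2, where a count of 0 allows levels of up to 0.105 to 0.127 CPM in WT. This covers counting error only. It stood at 282 and 28.9 CPM in KO replicates 1 and 3, at 21.3, 48.9 and 32.9 in the WT+ZnO NPs-labelled libraries, and at 111, 7.21 and 0.740 in KO+ZnO NPs. *Krt74*, annotated as a pseudogene, had 1, 1 and 0 counts in WT and 0 in KO replicate 2. Its highest levels were 15.7 CPM in replicate 3 of the WT+ZnO NPs-labelled libraries and 10.4 CPM in KO replicate 1, and per kb of exon it was the least abundant member in each group but WT.

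Among the type I keratins, *Krt25*, of all sheath layers, stood at 0.336, 0.0351 and 0.127 CPM in WT and at 1990.0, 0.121 and 697 in KO. It stood at 169, 809 and 1204 CPM in the WT+ZnO NPs-labelled libraries and at 1729, 1711 and 47.2 in KO+ZnO NPs. As for *Krt71*, KO replicate 2 fell among the WT values and the ZnO NP groups did not overlap WT. *Krt27*, also of all layers, stood at 0.336, 0.14 and 0.297 CPM in WT, at 1459, 2.25 and 336 in KO, at 47.6, 277 and 360.0 in the WT+ZnO NPs-labelled libraries and at 814, 567 and 15.4 in KO+ZnO NPs. KO replicate 2, with 56 counts against 4 to 8 in WT, lay above them.

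*Krt28*, the third keratin of all layers, was the member with most counts in WT, 17, 22 and 38, which is 0.713, 0.772 and 1.61 CPM. In KO replicate 2 it had 8 counts, or 0.321 CPM, below every WT library, while KO replicates 1 and 3 stood at 237 and 89.2. The WT+ZnO NPs-labelled libraries stood at 105, 305 and 395 CPM and the KO+ZnO NPs libraries at 244, 199.8 and 21.5. *Krt28* was the type I member whose mean in the WT+ZnO NPs-labelled libraries, 268 ± 148 CPM (SD, n = 3), was above its mean in KO, 109 ± 120 CPM. *Krt26*, of the cuticle, had 0 counts in every WT library and 3 in KO replicate 2. It ranged from 22.8 to 40.3 CPM in the WT+ZnO NPs-labelled libraries, from 0.958 to 88.9 in KO+ZnO NPs, and reached 206 in KO replicate 1.

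The first comparison asks how the sheath keratins differed between the genotypes under vehicle. In the edgeR quasi-likelihood fit over 18822 genes, 5 of 8 members (*Krt25*, *Krt27*, *Krt28*, *Krt71* and *Krt73*) were called higher in KO than in WT at an adjusted p below 0.05, where 4.61% of all genes were called higher. All 8 passed the filter on low counts, which they could do through the groups where they were high. The log2 fold change was 12.95 ± 2.98 (SE) for *Krt71*, 12.40 ± 2.85 for *Krt25*, 11.18 ± 2.44 for *Krt27*, 10.74 ± 1.87 for *Krt73* and 6.72 ± 1.72 for *Krt28*. The 3 members not called were those with 2 or fewer counts over all WT libraries. Against the floor of 3 counts per WT library, the KO mean of *Krt26* was at least 656-fold higher and that of *Krt72* at least 867-fold higher, and the ratio for *Krt74* was 154, with a 95% counting interval of 42.1 to 1274. These folds rest on KO replicate 1. Without it they were at least 121-fold for *Krt26* and for *Krt72* and 35.1 for *Krt74*, and without KO replicate 2 the ratio for *Krt74* was 236. In 3 members (*Krt26*, *Krt27* and *Krt73*) every KO library lay above every WT library, where 18.6% of all genes did so. For *Krt26* this rests on 3 counts in KO replicate 2, or 0.121 CPM, which lies within the 0.105 to 0.127 CPM that 0 counts allow in the WT libraries. In the other 5, KO replicate 2 did not lie above all WT libraries, and for *Krt28* it lay below them. The count depended on single libraries, as did that over all genes. It was 8 without KO replicate 2, where 3.00% of all genes were called higher, and 2 without KO replicate 1 (2.58% of all genes) or KO replicate 3 (2.52%). It was 1 without WT replicate 1 (2.07%) or WT replicate 3 (1.61%), and 0 without WT replicate 2 (0.933%). With the replicate number as a term of the fit it was 2 (3.56%). Among the 7 libraries without Y-linked transcripts, which hold 2 KO libraries and in which 2.05% of all genes were called higher, 1 member, *Krt73*, was called, with a log2 fold change of 9.68.

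The second comparison asks how exposure to the nanoparticles went with the sheath keratins in mice labelled wild type. Of the 8 members, 8 were called higher in the WT+ZnO NPs-labelled libraries than in WT, and in 8 every such library lay above every WT library. Over all genes 20.8% were called higher and 30.1% had no overlap in this direction. The log2 fold change was 12.40 ± 2.94 (SE) for *Krt71*, 12.10 ± 2.83 for *Krt25*, 11.30 ± 1.89 for *Krt73*, 9.79 ± 2.35 for *Krt27* and 8.02 ± 1.81 for *Krt28*. Against the same floor *Krt72* was at least 287-fold and *Krt26* at least 252-fold higher, and the ratio for *Krt74* was 372, with a counting interval of 102 to 3074. The median over the members was 11.70, or 9.02 with *Krt26* and *Krt72* at their bounds, beside 0.06 over all genes. Leaving out any 1 library of either group took *Krt26* and *Krt72* from the calls, which left 6, beside 13.8% to 18.1% of all genes, and 7 were called without KO replicate 3. All 3 WT+ZnO NPs-labelled libraries held Y-linked transcripts and no WT library did. With the presence of these transcripts as a term of the fit, which compares the groups through KO replicate 1 and KO+ZnO NPs replicate 1, 1 member (*Krt73*) was called, beside 8.44% of all genes called higher, and the log2 fold changes lay between 5.02 (*Krt74*) and 10.29 (*Krt71*).

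The third comparison asks whether exposure went with the sheath keratins in KO mice. None of the 8 members was called between KO+ZnO NPs and KO by edgeR, 0 had an unadjusted p under 0.05 and DESeq2 called 0, where 14.7% of all genes were called in either direction. The groups overlapped in all 8, whereas 34.7% of all genes had no overlap. Log2 fold changes lay between -1.38 ± 1.90 (SE) for *Krt72* and 0.55 ± 1.12 for *Krt73*, with a median of -0.18. These errors leave room for differences of several fold in either direction. The direction turned with 1 library. For *Krt72* the value was 1.47 without KO replicate 1 and -4.72 without KO+ZnO NPs replicate 1, and for *Krt26* it was 1.11 and -5.08. For *Krt27* it went from -0.36 to 1.46 without KO replicate 1.

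Between the genotypes under exposure, KO+ZnO NPs against the WT+ZnO NPs-labelled libraries, edgeR again called 0 of 8 members. At an unadjusted p under 0.05 there were 0, and DESeq2 called 0. Over all genes 3.28% were called and 23.7% had no overlap, while all 8 members overlapped. Log2 fold changes lay between -1.86 ± 1.35 (SE) for *Krt74* and 1.03 ± 1.52 for *Krt27*, with a median of 0.13. *Krt73*, with a mean of 316 CPM in either group, had a log2 fold change of -0.00 ± 1.12. Without KO+ZnO NPs replicate 1, *Krt26* moved from 0.05 to -3.69 and *Krt72* from 0.21 to -3.12.

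**Figure D2:**
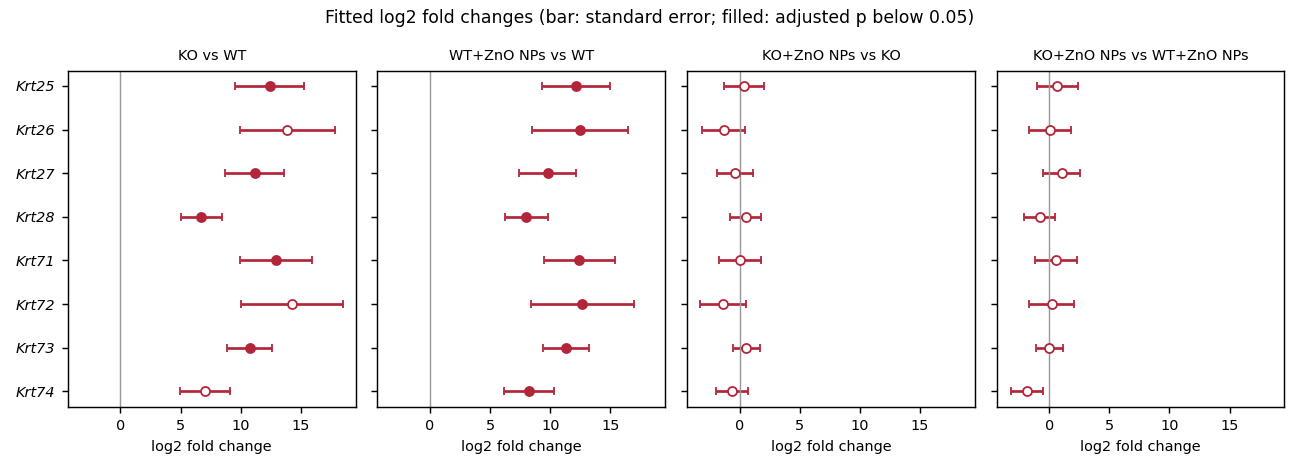
Log2 fold change of each inner root sheath keratin in 4 comparisons, with bars for 1 standard error and filled points where the adjusted p was below 0.05. Points of both comparisons with WT lie between 6.72 and 14.26, and points of the other comparisons lie between -1.86 and 1.03. Fitted values of *Krt26*, *Krt72* and *Krt74* against WT depend on the count that edgeR adds to zeros.

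The interaction compares the exposure difference in KO mice with that in mice labelled wild type. It was below 0 for all 8 members and 4 of them were called lower, where 3.59% of all genes were called lower. The called values were -12.39 ± 3.28 (SE) for *Krt71*, -11.73 ± 3.15 for *Krt25*, -10.75 ± 2.14 for *Krt73* and -10.15 ± 2.72 for *Krt27*. It uses the same WT libraries as the first and second comparisons and is no separate evidence beside them. The count was 6 without KO replicate 2, where 3.12% of all genes were called lower. It was 3 without replicate 1 of the WT+ZnO NPs-labelled libraries (3.46% of all genes) or of KO+ZnO NPs (3.27%). It was 1 without replicate 2 or 3 of either ZnO NP group, without KO replicate 1 or 3 or without WT replicate 1 or 3. In these fits with a count of 1, 1.08% to 3.46% of all genes were called lower. It was 0 without WT replicate 2 (0.799% of all genes) and 0 with Y-linked transcripts as a term of the fit (0.170%). With the replicate number as a term it was 1 (2.94%).

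To compare levels between members, CPM were divided by the exon length in kilobases. Over the 12 libraries the mean order was *Krt71*, *Krt25*, *Krt27*, *Krt73*, *Krt28*, *Krt72*, *Krt26* and *Krt74*, which is also the order of the group means in KO and KO+ZnO NPs. In the WT+ZnO NPs-labelled libraries *Krt28* (165 CPM per kb) came before *Krt27* (147) and *Krt73* (146), and in WT *Krt28* was first with 0.636 CPM per kb. *Krt71* stood above *Krt25* in 9 of the 9 libraries other than WT, *Krt25* above *Krt27* in 8, *Krt72* above *Krt26* in 8 and *Krt26* above *Krt74* in 8. *Krt28* stood above *Krt72* in all 12 libraries. *Krt27* and *Krt73* changed places, with *Krt27* above *Krt73* in 5 of the 9, and *Krt73* stood above *Krt28* in 7 of the 9. In the 3 groups other than WT, the mean CPM per kb of neighbours from *Krt71* to *Krt28* differed by less than the larger of their SDs, as for *Krt71* (698 ± 838, SD, n = 3) and *Krt25* (450.4 ± 508) in KO. The step from *Krt28* (165 ± 91.4) to *Krt72* (17.2 ± 6.95) and that from *Krt72* to *Krt26* (8.21 ± 2.47) exceeded both SDs in the WT+ZnO NPs-labelled libraries. The step from *Krt28* (95.6 ± 72.6) to *Krt72* (19.9 ± 31.1) did so in KO+ZnO NPs.

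Type I and type II transcripts were near balance per kb wherever the sheath keratins were abundant. The ratio of the summed type I to the summed type II levels was 1.08 and 1.10 in KO replicates 1 and 3, 1.11, 1.20 and 0.969 in the WT+ZnO NPs-labelled libraries, and 1.08, 1.21 and 0.989 in KO+ZnO NPs. KO+ZnO NPs replicate 3 kept this ratio although its sum, 94.96 CPM per kb, was far below the 3023 and 2462 of the other two. KO replicate 2 stood apart at 0.45, with *Krt73* making up 67.3% of its sheath keratin sum. In WT *Krt28* made up 38.6%, 78.6% and 70.7% of the sum, from 17, 22 and 38 counts.

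**Figure D3:**
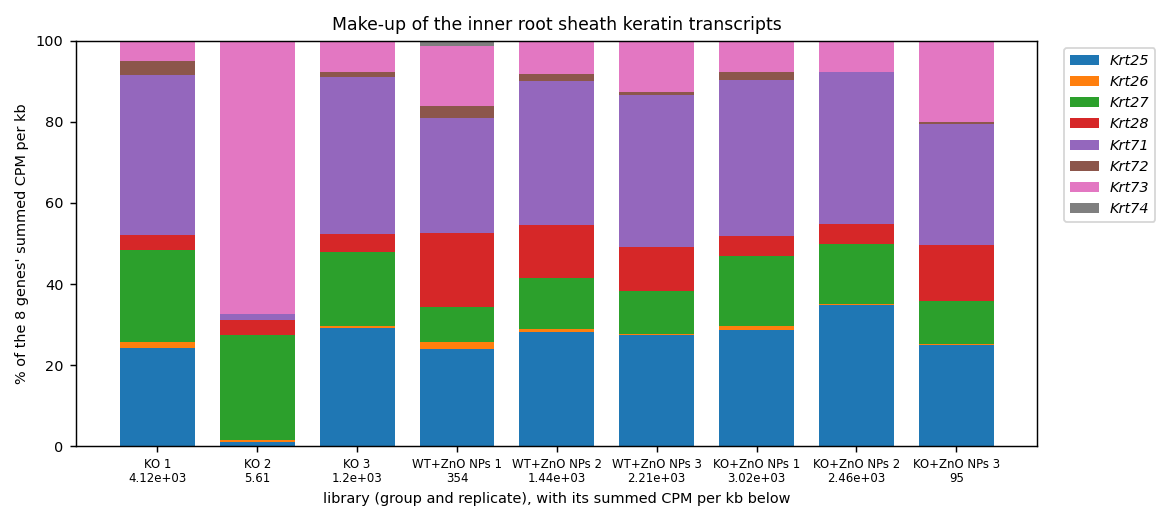
Share of each keratin in the summed CPM per kb of the 8 sheath keratins, for the 9 libraries other than WT, with that sum printed under each bar. *Krt71* and *Krt25* fill most of each bar except that of KO replicate 2, where *Krt73* fills 67.3% of a sum of 5.61 CPM per kb.

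The levels of 2 cuticle keratins were also set against those of the most abundant member of their type. *Krt72* amounted to 8.69% of *Krt71* per kb in KO replicate 1 and 3.10% in KO replicate 3, to 10.6%, 4.78% and 1.99% in the WT+ZnO NPs-labelled libraries, and to 4.80%, 0.392% and 1.31% in KO+ZnO NPs. In these 8 libraries *Krt26* followed the same order relative to *Krt25*, with 5.62% and 2.25% in KO replicates 1 and 3, 7.34%, 2.70% and 1.23% in the WT+ZnO NPs-labelled libraries, and 2.79%, 0.118% and 1.10% in KO+ZnO NPs. KO+ZnO NPs replicate 2 had high *Krt71* with the lowest of these shares. KO replicate 2 did not follow this order, with *Krt72* at 0 and *Krt26* at 54.2% of *Krt25*, where *Krt25* and *Krt26* had 3 counts each. *Krt73*, the third cuticle keratin, made up 7.57% of the sheath keratin sum in that library, 7.65% and 20.0% in replicates 1 and 3 of its group, 4.92% and 7.53% in KO replicates 1 and 3, and 14.8%, 8.0% and 12.2% in the WT+ZnO NPs-labelled libraries.

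A difference in make-up was noticed after the values were seen. *Krt27* exceeded *Krt28* per kb by 6.44, 7.33 and 3.95 times in KO, while the ratio was 0.476, 0.949 and 0.956 in the WT+ZnO NPs-labelled libraries and 0.493, 0.190 and 0.193 in WT. In the KO+ZnO NPs libraries it was 3.49, 2.97 and 0.751. The lowest ratio in KO was thus above the highest of each other group, and KO replicate 2, with few counts, went with its group. The difference was not tested, and *Krt27* and *Krt28* share some of their sequence.

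The genes flanking both clusters are keratins too, and they did not all move one way. Below the type I cluster lie *Krt222* and *Krt24*, above it *Krt10*, of differentiating epidermis, and *Krt12*, of the cornea. *Krt24* was not called in any comparison, with levels from 0.948 to 8.07 CPM over the 12 libraries, and neither was *Krt222*. *Krt10* was lower in the WT+ZnO NPs-labelled libraries than in WT, with a log2 fold change of -2.31 ± 0.50 (SE; edgeR adjusted p = 0.00436). Beside the type II cluster, *Krt5*, of basal keratinocytes, was higher in that comparison by 0.95 ± 0.28 on the log2 scale (adjusted p = 0.0181), *Krt6a* was not called, *Krt1*, the partner of *Krt10*, was lower by -2.12 ± 0.53 (adjusted p = 0.00892), and *Krt2* was higher by 3.92 ± 0.98 (adjusted p = 0.00894) at levels of no more than 6.13 CPM. Of the 7 flanking genes tested 0 were called in KO against WT, where the log2 fold change was 2.77 ± 0.97 for *Krt2* (adjusted p = 0.101), and 0 in the interaction, where it was -4.03 ± 1.28 for *Krt2* (adjusted p = 0.0742). In KO+ZnO NPs against the WT+ZnO NPs-labelled libraries *Krt1* was called higher, by 2.71 ± 0.54 (adjusted p = 0.0362). *Krt12* stood at no more than 0.396 CPM.

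Other genes of the inner root sheath, a list of 12, include structural proteins, the enzymes that modify them and transcription factors of the sheath. Of these, 3 were called higher and 0 lower in KO than in WT, beside 4.61% and 3.58% of all genes. In the WT+ZnO NPs-labelled libraries against WT 7 were called higher and 1 lower, beside 20.8% and 22.1% of all genes. In the remaining comparisons 0 were called, and in the interaction 1 was called lower. The median log2 fold change of the list was 0.89 and 1.84 in the comparisons with WT, beside 0.01 and 0.06 over all genes. *Tchh* encodes trichohyalin, the protein in which sheath keratins become embedded. It stood at 4.95, 3.58 and 5.82 CPM in WT, at 4415, 11.6 and 1207 in KO, at 127, 711 and 764 in the WT+ZnO NPs-labelled libraries and at 2983, 1810 and 33.7 in KO+ZnO NPs. The low libraries were those in which the sheath keratins were low. Its log2 fold change was 8.62 ± 2.09 (SE) in KO against WT (edgeR adjusted p = 0.0335) and 6.80 ± 1.94 in the WT+ZnO NPs-labelled libraries against WT (adjusted p = 0.0166).

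*Padi3* encodes a peptidylarginine deiminase, an enzyme that converts arginine of trichohyalin to citrulline. It stood at 0.42 to 0.983 CPM in WT, at 254, 0.964 and 55.1 in KO and at 47.1 to 96.8 in the WT+ZnO NPs-labelled libraries, with log2 fold changes of 7.19 ± 1.86 (SE; edgeR adjusted p = 0.0411) in KO and 6.71 ± 1.83 (adjusted p = 0.0135) in the WT+ZnO NPs-labelled libraries. *Gata3*, a transcription factor required for the sheath lineage and used elsewhere in the epidermis and immune system, differed less. It stood at 31.4 to 43.6 CPM in WT, 55.1 to 78.2 in KO and 113 to 149 in the WT+ZnO NPs-labelled libraries, without overlap between these 3 groups. In KO+ZnO NPs it stood at 67.3 to 119.7 CPM, which overlaps both KO and the WT+ZnO NPs-labelled libraries. Its log2 fold change was 0.83 ± 0.22 in KO (adjusted p = 0.0448) and 1.73 ± 0.23 in the WT+ZnO NPs-labelled libraries (adjusted p = 0.000233), and it was the gene of the list called in the interaction, at -1.29 ± 0.31 (adjusted p = 0.0322). The gene called lower in the WT+ZnO NPs-labelled libraries, named after its values were seen, was *Cdsn*, which encodes corneodesmosin, a protein that also serves in the cornified epidermis, at -2.58 ± 0.79 (adjusted p = 0.0235).

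Hair shaft keratins, of the structure that the sheath encloses, were likewise low in WT and in KO replicate 2, but KO+ZnO NPs replicate 2 ranked lower by them than by the sheath keratins. Of 15 genes tested, 1 was called higher in KO than in WT, beside 4.61% of all genes. It was *Krt35*, an early hair shaft keratin, at 8.96 ± 1.95 (SE; edgeR adjusted p = 0.0221). In the WT+ZnO NPs-labelled libraries against WT 10 were called higher, beside 20.8% of all genes. In the comparisons among the other groups 0 were called, and in the interaction 1. Their summed level was 3.97 to 5.82 CPM in WT, 1998, 3.05 and 247 in KO, 581 to 1885 in the WT+ZnO NPs-labelled libraries, and 1561, 187 and 40.9 in KO+ZnO NPs. In WT, 4 of the 15 were at 0 in every library. KO replicate 2 lay below the WT libraries. KO+ZnO NPs replicate 2, with 187 CPM, lay below KO replicate 3 and below replicate 1 of the WT+ZnO NPs-labelled libraries, although its sheath keratin sum of 4908 CPM was above their 2401 and 706 CPM.

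Of 16 regulators of the hair matrix and of hair growth, 6 were called higher and 0 lower in KO than in WT, beside 4.61% and 3.58% of all genes. In the WT+ZnO NPs-labelled libraries 14 were called higher and 0 lower, beside 20.8% and 22.1% of all genes. In the interaction 9 were called lower, beside 3.59% of all genes. Their summed level was 118 to 153 CPM in WT, 223 to 453 in KO, 507 to 1060.2 in the WT+ZnO NPs-labelled libraries and 367 to 597 in KO+ZnO NPs. KO replicate 2, the lowest KO library, thus lay above WT by this sum, though not for every gene of the list. *Hoxc13*, a transcription factor of the hair matrix and shaft, stood at 0.386 to 1.57 CPM in WT, 48.5, 4.78 and 26.3 in KO, 92.3 to 155 in the WT+ZnO NPs-labelled libraries and 14.7 to 69.4 in KO+ZnO NPs. Its log2 fold change was 4.61 ± 0.93 (SE; edgeR adjusted p = 0.0161) in KO and 6.78 ± 1.0 (adjusted p = 0.000507) in the WT+ZnO NPs-labelled libraries. *Shh*, the signal that drives follicle growth, stood at 0.0351 to 0.34 CPM in WT, 2.38, 0.161 and 13.3 in KO, 16.6 to 49.0 in the WT+ZnO NPs-labelled libraries and 9.41 to 18.5 in KO+ZnO NPs, with log2 fold changes against WT of 4.66 ± 1.28 (adjusted p = 0.0489) in KO and 7.48 ± 1.36 (adjusted p = 0.00164) in the WT+ZnO NPs-labelled libraries. KO replicate 2 lay within the WT range for *Shh*, as it did for *Krt71*.

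**Figure D4:**
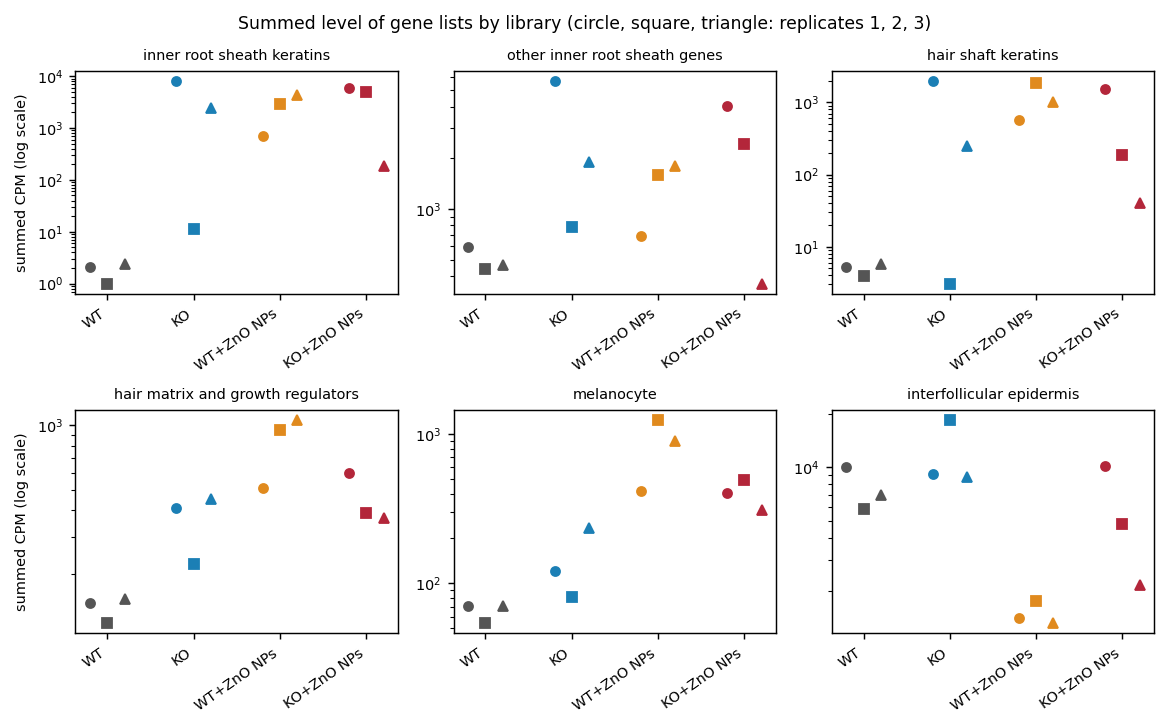
Summed CPM of 6 gene lists in each library on log scales that differ between panels, with circles, squares and triangles for replicates 1, 2 and 3. Sheath and hair shaft keratins are low in WT and in KO replicate 2, and interfollicular epidermis genes are lowest in the WT+ZnO NPs-labelled libraries.

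Genes of other compartments were also called, and their part in the sheath keratin values was not tested. In the comparison with WT, 20.8% of all genes were called higher and 22.1% lower in the WT+ZnO NPs-labelled libraries. In the WT+ZnO NPs-labelled libraries against WT, 8 of 8 cell cycle genes were called higher, 7 of 8 melanocyte genes higher and 1 lower, 6 of 8 interfollicular epidermis genes lower and 1 higher, 7 of 8 immune genes lower, 5 of 8 adipocyte genes lower, and 4 of 8 dermal fibroblast genes lower and 1 higher. The summed melanocyte level was 54.2 to 70.8 CPM in WT, 81.3 to 236 in KO, 413 to 1241 in the WT+ZnO NPs-labelled libraries and 312 to 496 in KO+ZnO NPs. The summed interfollicular level was 5820 to 10055 CPM in WT, 8835 to 18425 in KO, 1320.0 to 1753 in the WT+ZnO NPs-labelled libraries and 2179 to 10185 in KO+ZnO NPs. KO replicate 2, with few sheath keratin transcripts, had the highest interfollicular sum of the 12 libraries. The immune sum was 2572 to 3261 CPM in WT, 2187 to 3662 in KO, 354 to 722 in the WT+ZnO NPs-labelled libraries and 737 to 1165 in KO+ZnO NPs. The adipocyte sum was 6272 to 8446, 2914 to 5276, 1076 to 2471 and 1122 to 6720 CPM in these groups in turn. Between KO and WT, where 4.61% of all genes were called higher and 3.58% lower, 0 of 8 were called in the cell cycle, interfollicular, sebaceous gland, adipocyte and dermal fibroblast lists, 3 of 8 melanocyte genes were called higher, 2 of 8 immune genes higher and 1 of 8 skeletal muscle genes lower. Summed levels could still differ without overlap. The dermal fibroblast sum was 8102 to 15117 CPM in WT, 24006 to 38392 in KO, 7831 to 33813 in the WT+ZnO NPs-labelled libraries and 16078 to 22033 in KO+ZnO NPs. The sum of the companion layer and outer root sheath keratins was 5702 to 7692, 10155 to 16792, 8497 to 13747 and 12906 to 16918 CPM in the same order. The bulge and secondary germ sum was 460 to 607 CPM in WT and 281 to 409.5 in KO, lower in every KO library. The skeletal muscle sum was 5786 to 6935 CPM in WT and 1711 to 5784 in KO. Its highest KO library, replicate 1, thus stood right beside its lowest WT library, replicate 2. Of 9 companion layer and outer root sheath keratins, 2 were called higher in KO, and 4 higher and 1 lower in the WT+ZnO NPs-labelled libraries. Of 8 bulge and secondary germ genes, 1 was called higher and 1 lower in KO, and 3 higher and 2 lower in the WT+ZnO NPs-labelled libraries. Of the sebaceous gland genes 2 of 8 were called higher there, a share near that of all genes, and 0 of 8 skeletal muscle genes were called. In KO+ZnO NPs against KO, 6.57% of all genes were called higher and 8.09% lower. There 5 of 8 cell cycle, 5 of 8 sebaceous gland and 2 of 8 skeletal muscle genes were called higher, 7 of 8 immune genes lower, 1 of 8 melanocyte genes in each direction, and 1 of 8 lower in the interfollicular and in the dermal fibroblast list. In the adipocyte, bulge and companion layer lists 0 were called in that comparison. No gene of the melanocyte, interfollicular, immune or adipocyte lists was at 0 throughout a group.

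The genes whose pattern was most like that of the members were ranked by Pearson's r between their log2 CPM and the mean log2 CPM of the 8 members, over the 12 libraries and among 15920 genes. The 10 highest were *Calhm4* (r = 0.990), *Ephb1* (0.989), *Kcnk16* (0.987), *Tgm6* (0.980), *Foxe1* (0.979), *S100a3* (0.979), *Krt33a* (0.978), *Padi3* (0.977), *Gja3* (0.972) and *Cps1* (0.972). The libraries fall into low and high ones, so r ranks the genes and is no test of a relation. *S100a3*, a calcium-binding protein of the hair cuticle, reached 312 CPM and stood at 0.595 to 0.772 CPM in WT. *Tgm6*, a transglutaminase, stood at no more than 0.0351 CPM in WT and at 23.2 to 37.8 in the WT+ZnO NPs-labelled libraries. *Calhm4* and *Cps1* were at 0 in all WT libraries and in KO replicate 2.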

How the data were processed

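Skin mRNA of 12 mice, 3 per group, was sequenced. The authors deposited whole-number read counts per gene, which were used as deposited, and FPKM values, which were not used here. The study's methods name STAR and HTSeq, whereas the submitters' processing notes name HISAT2 2.0.5 and mm10. Which annotation release was used, and whether counting used strand, is not given in the sources used here. The methods also name another library kit than the labels do. Of 52636 genes, 52403 were matched to a symbol and position in GENCODE (GRCm38), and 0 entries named no gene. Columns were mapped to samples by name.

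The members and all gene lists were chosen with earlier results of these data known. Members are therefore described, with no p-value of their own, and counts of members called in the fit of all 12 libraries are set beside the percentage of all genes called. Counts were tested in R 4.3.3 with the quasi-likelihood test of edgeR 4.0.16 (TMM factors, filterByExpr, 12 libraries in one fit with 1 coefficient per group, 8 residual degrees of freedom, Benjamini-Hochberg adjustment over 18822 genes, calls at an adjusted p below 0.05). Standard errors are approximate, being the log2 fold change divided by the square root of F. Folds against libraries at 0 are bounds against 3 counts per library. All members are named. In the other lists a gene could be named if it was among the called genes with the largest changes (up to 4 per list and comparison, mean of at least 1 CPM). Not every gene that meets this rule is named, and *Cdsn* was named after its values were seen. Flanking genes were taken by position.

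Other settings tried were DESeq2 1.42.0, RLE factors, unscaled library sizes, only the groups compared, no filter, 10 counts in every library, a replicate block, Y-linked transcripts as a covariate and leaving out each library in turn. A fit of the 7 libraries without Y-linked transcripts was added after the data had been seen. Within groups, libraries differed beyond sampling noise (chi-square per degree of freedom 38.2 to 163), so each library counted as 1 sample. The edgeR fit was tried on simulated counts for the comparison of KO+ZnO NPs with KO. The other steps were not.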

Additional observations from a re-analysis of the deposited data

Results flagged for a closer look

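The interaction of genotype and ZnO NPs passed the threshold for 4 sheath keratins in the fit of all 12 libraries. By edgeR it was -12.39 for *Krt71*, -11.73 for *Krt25*, -10.75 for *Krt73* and -10.15 for *Krt27* on the log2 scale. Of all genes 3.59% were called lower in that fit. The count fell to 0 with Y-linked transcripts as a covariate (0.170% of all genes), to 0 without WT replicate 2 (0.799%) and to 1 with the replicate block (2.94%). These genes were chosen with earlier results known. The *Cdc42* transcript in whole skin does not bear out the wild-type label of the WT+ZnO NPs-labelled libraries, and Y-linked transcripts differ with this group.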

How the results depend on the processing

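Counts of members called in KO against WT (5 of 8) became 8 with DESeq2 and 8 with no filter on low counts, 3 with only the groups compared (4 members then passed the filter), and 1 in the 7 libraries without Y-linked transcripts, a fit chosen after seeing the data. Of all genes, 4.61% were called higher by edgeR and 7.54% with DESeq2, 2.56% with no filter and 8.07% with only the groups compared. Without 1 library each the counts of members ranged from 0 to 8, beside 0.933% to 6.18% of all genes called higher. In the WT+ZnO NPs-labelled libraries against WT (8 of 8, beside 20.8% of all genes called higher), the count became 1 with Y-linked transcripts as a covariate (8.44%). It ranged from 6 to 8 without 1 library each (13.8% to 24.3%). The interaction (4 of 8, beside 3.59% of all genes called lower) became 8 with DESeq2 (7.33%) and 0 with the Y-linked covariate (0.170%). It ranged from 0 to 6 without 1 library each (0.799% to 3.46%). The causes were not tested, except that fits with fewer samples have fewer degrees of freedom. Counts of the other comparisons were 0 under every alternative run. No called log2 fold change changed sign. A minimum of 10 counts in every library left 0 members and gave no value.

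The sources used here do not say whether replicate numbers pair the samples, and the values do not settle it. Of 18 pairs of libraries with the same number, 4 had deviations that correlated above 0.1 (range -0.34 to 0.43). However, 9 of 12 libraries correlated best with their own number. With the replicate block the count was 2 in KO against WT (3.56% of all genes called higher) and 1 in the interaction (2.94% called lower), and it stayed at 8 in the WT+ZnO NPs-labelled libraries against WT (21.0% called higher) and at 0 in the other comparisons. Depth limits *Krt26*, *Krt72* and *Krt74*, with 0 to 2 counts over all WT libraries.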
